A study of Homo sapiens with 6 samples.

Results

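Deoxynucleotide synthesis was examined through 9 genes, RRM1, RRM2, RRM2B, TYMS, TK1, DTYMK, DUT, DCK and SAMHD1, in RNA sequencing of T47D cells under low oxygen. The genes were taken by symbol from a list of known enzymes. All 9 were present among the 27754 genes in the files, and all 9 were among the 15657 genes that passed a filter on low counts. T47D is an established luminal, estrogen receptor-positive breast cancer cell line, grown here as adherent cultures in RPMI medium with 10% FBS. The control group was 3 libraries from cells in 20% O2 (normoxia). The labels give no time for this group, and the study's text gives 48 h for both groups. The treated group was 3 libraries from cells held at 0.5% O2 for 48 h (hypoxia), as the labels give it, and the study's text names a different low-oxygen setting for this experiment. The study describes its data as independent experiments, and its methods call the hypoxia and normoxia samples paired. The main fit does not use that pairing. The labels do not say which libraries came from separate cultures, and if some did not, part of the spread behind the p-values is technical.

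DNA replication and repair need a steady supply of deoxynucleoside triphosphates (dNTPs). Ribonucleotide reductase makes the deoxy form from ribonucleotides, with RRM1 as its large subunit and either RRM2 or RRM2B as its small subunit. The small subunit carries iron and uses molecular oxygen to form the tyrosyl radical on which catalysis depends. RRM2 is the form of cycling cells, whereas RRM2B is a damage-inducible form that also serves cells outside S phase and mitochondrial DNA. The thymidine branch has its own enzymes, and a salvage branch recovers deoxynucleosides from inside and outside the cell.

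The counted exons of RRM1 span 4115915 to 4160155 on chromosome 11 of GRCh37, those of RRM2 10262695 to 10271546 on chromosome 2, and those of RRM2B 103216729 to 103251346 on chromosome 8. TYMS lies on chromosome 18 (657604 to 673499), TK1 on chromosome 17 (76170160 to 76183285), DTYMK on chromosome 2 (242615157 to 242626383) and DUT on chromosome 15 (48623292 to 48635570). DCK lies on chromosome 4 (71859265 to 71896629) and SAMHD1 on chromosome 20 (35520227 to 35580246). GENCODE has each of them as a protein-coding gene. TYMS was the gene with a large overlap, since 888 of its 1583 exon bases (56.1%) are also exon bases of ENOSF1 on the opposite strand, and 106 are shared with the antisense RNA TYMSOS. SAMHD1 shares 205 exon bases with TLDC2, which had at most 17 counts in any library. By name, GENCODE holds 3 pseudogene copies of RRM2, 2 of TYMS and 8 of DUT, and none of these is counted as a gene of its own in the files. The handling of reads with several matches is not given in the sources used here, so the counts of TYMS, RRM2 and DUT carry that uncertainty.

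Library totals lay between 32989104 and 89883409 counts, the highest being hypoxia replicate 3. The 9 genes had at least 744 counts in every library, far above a floor of 3 counts (0.0334 to 0.0909 counts-per-million, CPM, covering counting error only). Replicate 3 stood apart in both conditions. The chi-square per degree of freedom between libraries of 1 condition was 6.48 and 8.50 for replicates 1 and 2, and 36.8 to 76.6 for pairs that included replicate 3. Libraries with the same number deviated together from their condition means, and the fit blocked on replicate number is given where it changes a call of the 9 genes or a count of a gene list. That fit is also given for RRM2, DUT and DTYMK. Luminal markers were abundant, with KRT8 at 5801 CPM and GATA3 at 994 CPM in normoxia. No library had over 5 counts of the immune marker PTPRC or the endothelial marker PECAM1, or over 1 of the fibroblast marker DCN. Of 11 luminal markers 5 fell and 1 rose, against 29.1% and 30.4% of all genes tested. The summed level of the 11 was 15613 to 19559 CPM in normoxia and 11201 to 14265 CPM in hypoxia. Summed immune markers (6 genes, 2 of 3 tested rose) lay at 2.88 to 3.17 CPM in normoxia and 9.78 to 11.6 CPM in hypoxia, basal markers at 1.07 to 2.04 and 2.72 to 3.03 CPM, fibroblast markers at 84.2 to 95.9 and 77.4 to 99.7 CPM, and endothelial markers at up to 0.656 CPM, and their part in the results was not tested. The hypoxia control CA9, a carbonic anhydrase, rose from 0.610 ± 0.380 to 24.7 ± 5.92 CPM (SD, n = 3).

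Most of the pathway was lower in hypoxia, and a single gene was higher. Of the 9 genes, 6 fell (TYMS, SAMHD1, DTYMK, RRM1, DUT and RRM2), RRM2B rose, while TK1 and DCK missed the threshold of 0.05 on the adjusted p (quasi-likelihood test of edgeR, adjusted over all genes). Changes were widespread in these libraries, since 29.1% of all genes tested fell and 30.4% rose by the same rule. The median log2-fold change (hypoxia over normoxia) was -0.78 over the 9 genes and 0.028 over all genes tested. In 5 of the 9 genes every hypoxia library lay below every normoxia library, which held for 32.4% of all genes tested. Taken in either direction, 7 of the 9 changed, against 59.5% of all genes. Falls of at least 1 on the log2 scale were rarer, at 4.91% of all genes, and TYMS and SAMHD1 were the 2 of the 9 among them. RRM2B was the only one of the 9 with every hypoxia library above every normoxia library (34.9% of all genes tested). With the replicate number as a block, 7 of the 9 fell, against 35.2% of all genes, TK1 being the addition, and RRM2B rose, against 36.6%, so that 8 of 9 changed, against 71.8%. Without both libraries numbered 3, all 8 genes other than RRM2B fell, against 5506 of the 15803 genes tested in that setting. Without both libraries numbered 1 only TYMS, RRM1 and SAMHD1 fell, against 2191 of 15713 genes tested. In bulk RNA, fewer cells in S phase and less RNA per cell cannot be told apart.

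**Figure D1:**
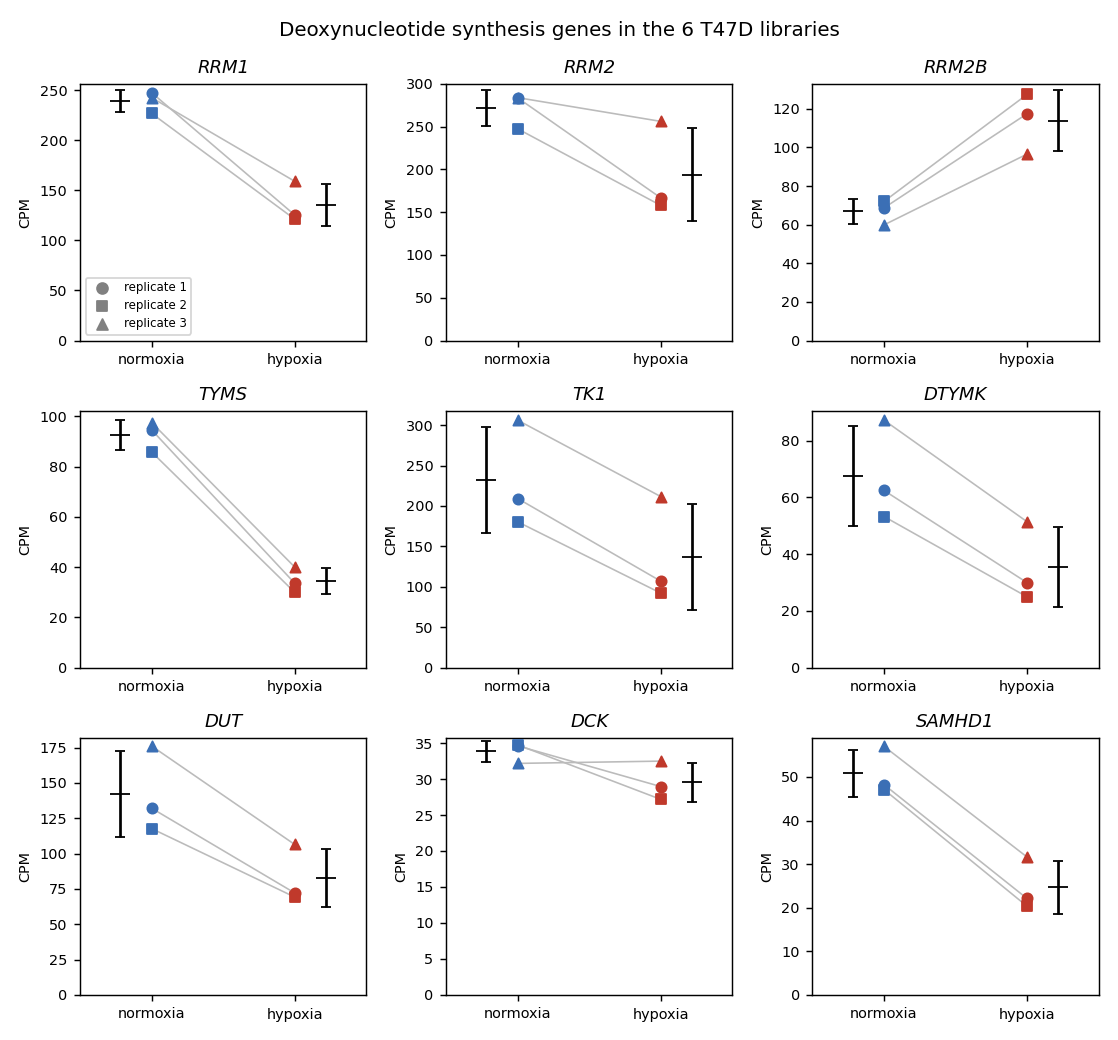
Normalized level (CPM, linear axis from 0) of each of the 9 genes in the 6 libraries, with the mean and SD of 3 libraries beside the points and grey lines joining libraries of the same replicate number. Lines fall in all 3 pairs for 7 genes and rise in all 3 for RRM2B, and replicate 3 (triangles) is the highest library of its condition for TK1, DTYMK, DUT, SAMHD1, TYMS and RRM2.

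RRM1, the large subunit that holds the active and regulatory sites of ribonucleotide reductase, had 247.6, 226.9 and 242.6 CPM in normoxia replicates 1, 2 and 3, and 125.4, 121.3 and 159.1 CPM in the hypoxia replicates. The groups did not overlap, and hypoxia replicate 3 was the highest of its group. Its level in hypoxia was 0.566 times that in normoxia, with a log2-fold change of -0.82 ± 0.11 (SE, adjusted p = 6.55e-04, quasi-likelihood test of edgeR, as for every adjusted p below).

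RRM2, the small subunit of cycling cells, changed less and with more spread. It had 283.6, 247.4 and 283.9 CPM in the normoxia replicates and 166.7, 157.8 and 256.1 CPM in the hypoxia replicates. Hypoxia replicate 3 lay above normoxia replicate 2, so the groups overlapped, although each hypoxia library was below the normoxia library of its number. The log2-fold change was -0.49 ± 0.18 (SE, adjusted p = 0.0450), close to the threshold. RRM2 was also called by edgeR's exact test (adjusted p = 0.0183) and by DESeq2 (adjusted p = 0.0150). With the replicate block the log2-fold change was -0.52 ± 0.11 (SE, adjusted p = 0.00288). In pairs of the same number it was -0.77, -0.65 and -0.15 for replicates 1, 2 and 3. Without both libraries numbered 3 the log2-fold change was -0.71 (adjusted p = 5.74e-07), and without hypoxia replicate 3 alone -0.75 (adjusted p = 4.50e-04). Without both numbered 1 it was -0.36 (adjusted p = 0.267), and without both numbered 2 it was -0.43 (adjusted p = 0.128). Leaving out normoxia replicate 1 or 3, or hypoxia replicate 1 or 2, also ended the call (adjusted p of 0.0993, 0.0796, 0.143 and 0.133), as did upper-quartile scaling (-0.33, adjusted p = 0.112) and scaling by library totals (-0.38, adjusted p = 0.0794).

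RRM2B, the alternative small subunit, moved the other way. It had 68.7, 72.0 and 59.9 CPM in the normoxia replicates and 117.4, 127.4 and 96.5 CPM in the hypoxia replicates. Here replicate 3 was the lowest library of both groups, the reverse of its place for RRM2, and the groups did not overlap. RRM2B was 1.70 times higher in hypoxia, with a log2-fold change of 0.77 ± 0.12 (SE, adjusted p = 0.00122) and values of 0.77, 0.82 and 0.69 in the 3 pairs. This change exceeded that of 79.8% of all genes tested, so a rise of this size was common in these libraries.

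The promoter of RRM2 shows a feature that the counts do not. In the RefSeq sequence of GRCh38.p14, from 250 bases before to 50 bases after the start of the gene, CCAAT was found 3 times on the strand of the gene, at positions -123, -93 and -66 from the start. CCAAT is the core of the box bound by the factor NF-Y and is common in promoters of cell cycle genes. The windows are shown because the repeats share more than the core, and capitals mark CCAAT:
RRM2 at -123, chr2:10122604-10122633, + strand: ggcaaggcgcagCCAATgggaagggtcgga
RRM2 at -93, chr2:10122634-10122663, + strand: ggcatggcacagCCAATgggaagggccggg
RRM2 at -66, chr2:10122661-10122690, + strand: ggggcaccaaagCCAATgggaagggccggg
All 3 windows hold the same 15 bases, agCCAATgggaaggg, which occur in 2 of 27305 RefSeq promoters of this length, that of RRM2 included. Because these bases were taken from the RRM2 promoter itself, this count is a description and not a test. At least 3 CCAAT matches, on either strand, were found in 3.42% of these promoters. CCAAT on either strand was also found in the windows of RRM1, DTYMK and SAMHD1, so that 4 of the 8 genes with a promoter in the table held it, against 35.7% of all promoters.

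In the thymidine branch TYMS, DUT and DTYMK fell, TYMS by the most. TK1 did not pass in the fit on condition alone but did with the replicate block. Thymidylate synthase (TYMS) makes dTMP from dUMP with a folate as the carbon donor, and it is the target of 5-fluorouracil. It had 94.6, 85.8 and 97.5 CPM in the normoxia replicates and 33.62, 29.99 and 40.06 CPM in the hypoxia replicates, far apart and with little spread. The level in hypoxia was 0.373 times that in normoxia, a log2-fold change of -1.42 ± 0.12 (SE, adjusted p = 9.78e-05). Of all genes tested, 1.56% had a log2-fold change as low or lower. The overlapping gene ENOSF1 rose (log2-fold change 0.38, adjusted p = 0.0129), opposite in direction to TYMS, whereas TYMSOS fell (log2-fold change -0.96, adjusted p = 0.0476). TYMSOS lost its call under 9 of 16 alternatives (adjusted p of up to 0.151), and ENOSF1 lost it without both libraries numbered 1 (0.0663) or both numbered 2 (0.0736). The library kit keeps strand, but the strand setting of the counting is not given in the sources used here, and the part of shared reads in these values was not tested.

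DUT, which removes dUTP and so makes dUMP for TYMS while keeping uracil out of DNA, had 132.1, 117.7 and 176.2 CPM in the normoxia replicates and 72.2, 69.2 and 106.5 CPM in the hypoxia replicates. Replicate 3 was the highest library of each group, and the groups did not overlap. The log2-fold change was -0.78 ± 0.20 (SE, adjusted p = 0.0113), and -0.74 without both libraries numbered 1 (adjusted p = 0.0704). With the replicate block it was -0.79 ± 0.055 (SE, adjusted p = 9.71e-06). DTYMK, the kinase that carries dTMP on to dTDP from both routes, had 62.5, 53.3 and 87.3 CPM in the normoxia replicates and 29.99, 24.99 and 51.46 CPM in the hypoxia replicates. The groups came close, with hypoxia replicate 3 just below normoxia replicate 2. The log2-fold change was -0.92 ± 0.28 (SE, adjusted p = 0.0226). With the replicate block it was -0.96 ± 0.078 (SE, adjusted p = 1.89e-05). In the fit on condition alone DTYMK lost the call without normoxia replicate 3 (adjusted p = 0.0551) and without hypoxia replicate 1 or 2 (0.0769 and 0.0639). It also lost the call without both libraries numbered 1 (0.105).

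TK1, the cytosolic thymidine kinase of S phase, had 209.1, 180.3 and 306.0 CPM in the normoxia replicates and 106.9, 92.2 and 211.6 CPM in the hypoxia replicates. The groups overlapped because hypoxia replicate 3 lay above normoxia replicates 1 and 2. Both libraries numbered 3 were high, at 1.57 times the mean of replicates 1 and 2 in normoxia and 2.12 times in hypoxia. The log2-fold change was -0.76 ± 0.32 (SE, 95% interval -1.50 to -0.010, adjusted p = 0.0744), which did not pass the threshold. Within each pair TK1 was lower in hypoxia, with log2 differences of -0.97, -0.97 and -0.53. With the replicate block its log2-fold change was -0.82 ± 0.089 (SE, adjusted p = 8.76e-05). Without both libraries numbered 3 it was -0.96 (adjusted p = 1.19e-07), and without hypoxia replicate 3 alone it was -1.22 (adjusted p = 0.00263).

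The promoters of the same 8 genes were searched for the E2F motif in its 4 forms (TTTCCCGC, TTTCGCGC, TTTGCCGC and TTTGGCGC), for the cell cycle element CHR (TTTGAA and TTCGAA) and for the hypoxia response core (ACGTG and GCGTG), on both strands. The windows below hold the E2F and CHR matches of the thymidine branch, in capitals, and are shown because E2F and CHR elements mark many S phase and mitotic promoters:
TYMS, E2F at -39, chr18:657603-657632, + strand: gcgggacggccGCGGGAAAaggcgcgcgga
DTYMK, CHR at -84, chr2:241686882-241686911, - strand: ccggccaatcccTTCGAAtttggccgaggc
In the DTYMK window the CHR letters follow a CCAAT by 3 bases, and the motifs do not overlap. E2F letters were found in TYMS and DCK, 2 of the 8 promoters against 3.33% of all promoters. CHR letters were found in DTYMK and RRM1, 2 of 8 against 16.6%. The hypoxia response core was found in 6 of 8 (DCK, DTYMK, RRM1, SAMHD1, TK1 and TYMS), against 48.4% of all promoters. Of these 6 genes 4 fell in hypoxia, against 29.1% of all genes tested. RRM2 and DUT, whose promoters lacked the core, fell as well. In DCK, 2 of the matches to the core overlap, since ACGTG was read on both strands of CACGTG. None of the motifs searched was found in the DUT window, and no promoter of RRM2B was in the table. A match is a string of letters in this window and not a measured binding site.

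**Figure D2:**
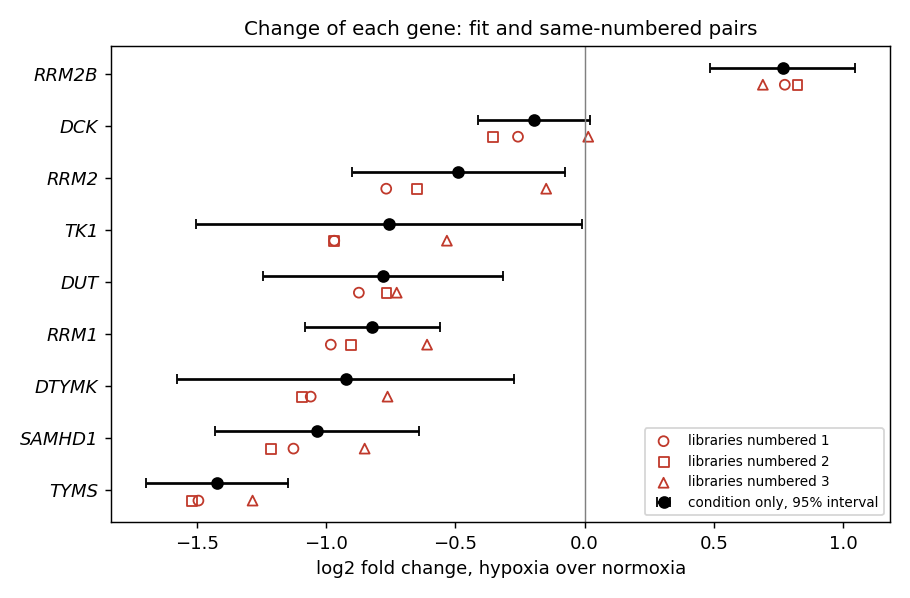
Log2-fold change (hypoxia over normoxia, horizontal axis) of each gene from the fit on condition alone, as black points with 95% intervals, and the log2 difference within each same-numbered pair as open red symbols. The intervals of TK1 and DTYMK are wide while their pairs lie close together, and the pair numbered 3 lies nearest to 0 for every gene shown.

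DCK, the kinase that salvages deoxycytidine and the purine deoxynucleosides and activates gemcitabine and cytarabine, changed least. It had 34.6, 34.7 and 32.2 CPM in the normoxia replicates and 28.95, 27.17 and 32.49 CPM in the hypoxia replicates. The groups overlapped, and hypoxia replicate 3 lay above normoxia replicate 3. The log2-fold change was -0.19 ± 0.094 (SE, 95% interval -0.41 to 0.022, adjusted p = 0.106), so a fall of up to 0.41 or a rise of up to 0.022 was compatible with the spread. Without both libraries numbered 3 it was -0.30 (adjusted p = 0.00298), and without hypoxia replicate 3 alone -0.27 (adjusted p = 0.0253). Upper-quartile scaling brought it to -0.040 (adjusted p = 0.730).

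SAMHD1 acts against the other enzymes, since it breaks dNTPs down to deoxynucleosides and so limits the pool, which also restricts retroviruses. It fell as well. It had 48.2, 47.1 and 57.0 CPM in the normoxia replicates and 22.1, 20.3 and 31.6 CPM in the hypoxia replicates. The groups did not overlap, and replicate 3 was the highest library in both. The level in hypoxia was 0.486 times that in normoxia, a log2-fold change of -1.03 ± 0.17 (SE, adjusted p = 0.00149).

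Levels of different genes were compared as CPM per kb of counted exons. In normoxia TK1 was the most abundant of the 9, at 145 ± 41.3 CPM per kb (SD, n = 3), followed by RRM2 at 79.1 ± 6.11 and RRM1 at 66.9 ± 3.03. DUT, TYMS and DTYMK followed at 60.6 ± 12.99, 58.5 ± 3.85 and 49.8 ± 12.9 CPM per kb. The neighbours from RRM1 down to DTYMK had overlapping ranges of libraries. The lowest levels were those of SAMHD1 (15.9 ± 1.70), DCK (12.99 ± 0.555) and RRM2B (12.9 ± 1.21), and DCK and RRM2B were not separated.

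In hypoxia the top of the order was kept by mean level, with TK1 at 85.8 ± 40.8, RRM2 at 56.4 ± 15.8, RRM1 at 37.8 ± 5.80 and DUT at 35.3 ± 8.84 CPM per kb. The ranges of TK1 and RRM2 now overlapped. RRM2B moved from last place to sixth, at 21.9 ± 3.03, and could not be separated from TYMS at 21.8 ± 3.22 or from DTYMK at 26.1 ± 10.3. TYMS was 58.5 CPM per kb and RRM2B 12.9 CPM per kb in normoxia, and both had moved to near-equal levels in hypoxia. DCK (11.3 ± 1.04) and SAMHD1 (7.74 ± 1.90) were lowest, and they had changed places.

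**Figure D3:**
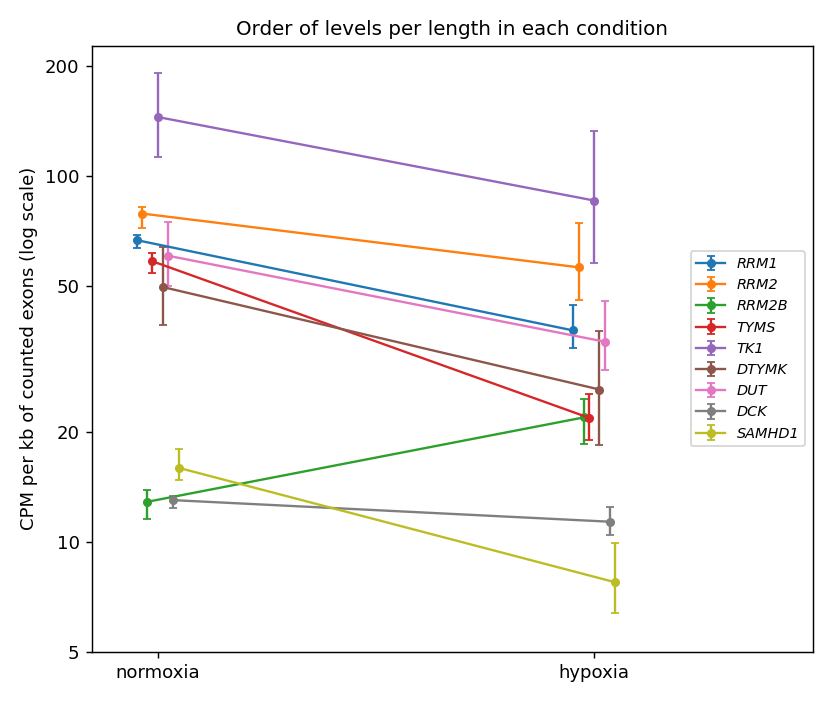
Level per length (CPM per kb of counted exons, log axis) of each gene in normoxia and hypoxia, as the mean with bars from the lowest to the highest of 3 libraries. RRM2B rises from 12.9 to 21.9 and meets TYMS, which falls from 58.5 to 21.8.

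The balance between the alternative small subunits was taken within each library, where depth and scaling cancel. The ratio of RRM2 to RRM2B, per length, was 6.25, 5.20 and 7.18 in the normoxia replicates and 2.15, 1.88 and 4.02 in the hypoxia replicates. RRM2 was the more abundant in all 6 libraries, and the ratios of the groups did not overlap. In hypoxia the ratio was 0.411 times that in normoxia, a log2 difference of -1.28 (two-sided exact permutation test, p = 0.10, n = 3 per group), and 0.10 is the smallest p that 3 against 3 libraries allow. Without hypoxia replicate 3 the log2 difference was -1.62, and without hypoxia replicate 2 it was -1.07.

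The ratio of RRM1 to RRM2 was 0.839, 0.881 and 0.821 in the normoxia replicates and 0.723, 0.738 and 0.597 in the hypoxia replicates. These groups did not overlap either, and the large subunit had fallen further than RRM2 in every pair. The log2 difference was -0.31 (exact permutation p = 0.10, n = 3 per group). The ratio of TYMS to TK1, which sets the new-synthesis route to dTMP beside its salvage, was 0.456, 0.480 and 0.321 in the normoxia replicates and 0.317, 0.328 and 0.191 in the hypoxia replicates. It was lower in hypoxia within each pair, but the groups overlapped because normoxia replicate 3 was low. Its log2 difference was -0.61 (exact permutation p = 0.20, n = 3 per group). Leaving out hypoxia replicate 3 gave -0.36 for this ratio. With the replicate block, 3 pairs cannot give a p under 0.25 in an exact sign-flip test, and all 3 ratios gave 0.25.

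**Figure D4:**
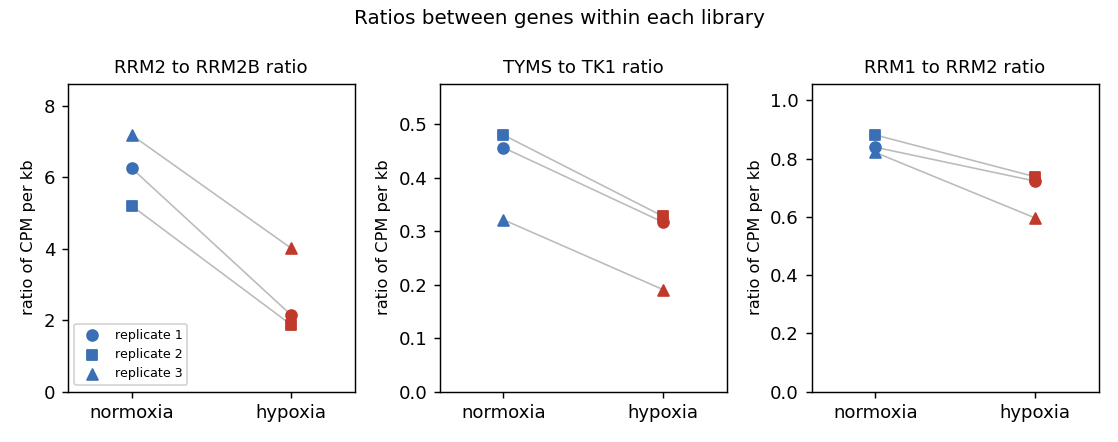
Ratio of levels per length (linear axis from 0) of RRM2 to RRM2B, TYMS to TK1 and RRM1 to RRM2 in each library, with grey lines joining libraries of the same number. Every line falls, and the RRM2 to RRM2B ratio goes from 5.20 to 7.18 in normoxia to 1.88 to 4.02 in hypoxia.

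Enzymes that supply the pathway were also lower. Of 8 genes of pyrimidine nucleotide synthesis tested, 7 fell and 0 rose, against 29.1% of all genes falling, with a median log2-fold change of -0.76. CTPS1, which makes CTP from UTP, fell from 67.8 ± 14.2 to 12.97 ± 3.96 CPM (SD, n = 3), with a log2-fold change of -2.37 (adjusted p = 1.80e-04). CAD, which carries the first steps of pyrimidine synthesis, fell from 107.9 ± 21.4 to 40.1 ± 8.06 CPM. Of 15 purine genes, 11 fell and 1 rose (median -0.38). ATIC, which closes the purine ring, had a log2-fold change of -1.12 and PFAS, an earlier step, of -0.98. The gene that rose, ADSSL1, an adenylosuccinate synthetase best known from muscle, had a log2-fold change of 1.41. In the folate cycle that serves TYMS, 3 of 4 genes fell. MTHFD1 had a log2-fold change of -1.07 and SHMT1 of -0.89, and the mitochondrial SHMT2 had 0.053 (adjusted p = 0.726).

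Ribonucleotide reductase is recharged by thioredoxin and glutaredoxin. Of 5 genes of these systems, 4 fell and 1 rose, against 29.1% and 30.4% of all genes tested. Thioredoxin (TXN) and glutathione reductase (GSR) had log2-fold changes of -0.70 and -0.92. Thioredoxin reductase (TXNRD1) rose from 321.9 ± 39.2 to 521.7 ± 120.8 CPM (log2-fold change 0.70, adjusted p = 0.00812). Of 3 genes of protein turnover in the cell cycle, 2 fell and 0 rose, against the same shares of all genes. CCNF and CDC20 fell by 0.69 and 1.12 on the log2 scale. FZR1 did not pass the test (-0.036, adjusted p = 0.767).

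Mitochondrial salvage and its carriers were mixed, with 5 of 9 genes lower and 2 higher, against 29.1% and 30.4% of all genes tested. SLC25A36, a pyrimidine nucleotide carrier, rose with a log2-fold change of 0.56, as did the deoxyguanosine kinase DGUOK with 0.25 (adjusted p = 0.0291). DGUOK lost its call under 7 of 16 alternatives, with adjusted p of up to 0.252. SLC25A33, another pyrimidine nucleotide carrier, fell with -0.83. Of 12 nucleoside mono- and diphosphate kinases tested, 5 fell and 2 rose, against the same shares of all genes. AK4, a mitochondrial adenylate kinase, had a log2-fold change of 0.88, GUK1 of 0.31, AK1 of -1.37 and NME1 of -0.96. GUK1 (adjusted p = 0.0396) lost its call under 8 of 16 alternatives, with adjusted p of up to 0.176. Of 13 genes of nucleotide breakdown and pool cleaning, 4 fell and 4 rose, near the shares over all genes (29.1% and 30.4%), with a median of -0.036, which is smaller than the shift of all genes under upper-quartile scaling (median from 0.028 to 0.185). DCTPP1, which clears dCTP and its modified forms, had -1.39, and the purine nucleoside phosphorylase PNP had -0.82. The uridine phosphorylase UPP1 had 1.88 and the mitochondrial deoxynucleotidase NT5M 1.10. The calls of TXNRD1, NT5M, CCNF and NME1 were lost without both libraries numbered 1 (adjusted p of 0.0659, 0.0502, 0.0946 and 0.0601). Cytidine deaminase (CDA) rose from 0, 5 and 4 counts in the normoxia replicates to 34, 38 and 56 counts in the hypoxia replicates, low levels throughout. The hypoxia replicates had 0.840, 1.04 and 0.613 CPM of CDA.

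Proliferation genes moved in the same direction as the pathway. Of 24 S phase and proliferation markers, 23 fell and 0 rose, against 29.1% and 30.4% of all genes tested. Their median log2-fold change was -1.11. UHRF1, which keeps DNA methylation through replication, and MCM5, of the replicative helicase, fell most, with -1.76 and -1.67. The summed level of the 24 markers was 4662 to 5492 CPM in the normoxia libraries and 2297 to 3402 CPM in the hypoxia libraries, and its part in the values of the 9 genes was not tested. Of 19 E2F and DREAM regulators, 12 fell and 0 rose, against the same shares of all genes. E2F2 and E2F1, activators of S phase genes, had log2-fold changes of -1.58 and -1.53. Blocked on replicate number, this list had 13 genes lower and 1 higher, the latter being TFDP2 (log2-fold change 0.17, adjusted p = 0.0248), a partner of E2F factors, and all 24 proliferation markers were lower. The same block gave 8 of 8 pyrimidine genes lower and 13 of 15 purine genes lower. It gave 6 lower in each of the lists of breakdown genes, of nucleotide kinases and of mitochondrial salvage. With it 7 luminal markers were lower and 2 higher, and all 3 immune markers tested were higher. Over all genes tested, 35.2% fell and 36.6% rose with this block.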

How the data were processed

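RNA of T47D cells was sequenced as 6 stranded mRNA libraries on Illumina HiSeq. Per the labels and the study's methods, the authors used FastQC 0.11.5, trimmed adapters (Skewer), mapped to GRCh37/hg19 with STAR 2.5.2a and assigned reads to RefSeq genes with featureCounts 1.5.1. The deposited values are raw counts, 1 file per library, with the exon length of each gene. Genes were kept with edgeR's filterByExpr (minimum count 10, minimum total 15) and tested with edgeR 4.0.16 (R 4.3.3) by the quasi-likelihood test after TMM normalization, on condition alone, p-values being adjusted (Benjamini-Hochberg) over all 15657 genes at 0.05. CPM are TMM-normalized. The test was first tried on simulated counts. Ratios were tested by an exact permutation test. Pairing was checked by correlating, across genes, deviations from condition means (0.426, 0.495 and 0.624 for replicates 1, 2 and 3), and the methods call the samples paired. Named list genes are the 2 largest called rises and falls with a mean of at least 100 counts, plus calls beyond 2 on the log2 scale. SHMT2, FZR1, TFDP2, SLC29A1 and SLC29A2 were named after their values were seen. The genes and lists were chosen with earlier results of these data known. Promoters are RefSeq's, of GRCh38.p14, matched by symbol for 8 of 9 genes, and motifs were searched in Python 3.11.15. Alternatives were other scalings, filters and tests (edgeR's exact test, named in the study's methods, and DESeq2 1.42.0), the replicate block and left-out libraries. A list of 21 genes (15 higher, 2 lower) and single genes of other lists are not reported here, although counts over the neighbouring lists include them.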

Additional observations from a re-analysis of the deposited data

How the results depend on the processing

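None of the 9 genes and none of the 3 ratios between them reversed direction under any alternative run. RRM2B was the 1 gene of the 9 called higher under all 16 alternatives, and TYMS, RRM1 and SAMHD1 were called lower under all 16. With libraries or replicate numbers left out, the number of the 9 genes called lower ranged from 3 (without both libraries numbered 1) to 8, calls over all genes from 2648 to 5751 higher and from 2191 to 5506 lower, and calls in the neighbouring lists from 21 to 32 higher and from 48 to 86 lower (27 and 78 with all libraries). The replicate block gave 5733 higher and 5511 lower genes, and of the 9 genes it changed only the call of TK1 (adjusted p = 8.76e-05). Upper-quartile scaling moved the median log2-fold change over all tested genes from 0.028 to 0.185 and the share of calls that were higher from 51.1% to 64.5%, and library totals alone gave 61%. RRM2 lost its call under both (adjusted p of 0.112 and 0.0794), and TK1 passed with edgeR's exact test (0.0352) and with all genes of at least 1 count (0.0456), but not with DESeq2 (0.133). The cause of these changes was not tested. The log2 difference of the RRM2 to RRM2B ratio ranged from -1.62 to -1.07 with a library left out. Depth was not limiting for the 9 genes, whereas 3 libraries per condition limit every p given here.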

Other observations

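Among 7 nucleoside transporters, 5 were tested and 2 rose, against 30.4% of all genes tested. SLC28A1, a concentrative carrier of pyrimidine nucleosides, was counted 3, 4 and 5 times in normoxia (replicates 1 to 3) and 136, 153 and 591 times in hypoxia. In CPM, which allow for depth, these were 0.0760, 0.107 and 0.162 in normoxia and 3.36, 4.18 and 6.47 in hypoxia. SLC29A4, an equilibrative transporter also known as a monoamine carrier, rose from 11.9 ± 0.988 to 33.5 ± 0.704 CPM (SD, n = 3; log2-fold change 1.49, adjusted p = 4.20e-05, quasi-likelihood test of edgeR). The main equilibrative transporters SLC29A1 and SLC29A2 had log2-fold changes of -0.093 and 0.11 (adjusted p of 0.544 and 0.297). Blocked on replicate number, 3 transporters rose, against 36.6% of all genes tested.

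The genes with the pattern most like that of 3 of the enzymes over the 6 libraries were found by the root mean square difference of log2 CPM, centred on each gene's mean, among 12664 other genes averaging 100 counts or more. For RRM2 these were ZNF878 (0.044), the mitotic kinesin KIF2C (0.047) and the Fanconi anemia protein FANCD2 (0.053). For TK1 they were the tubulin TUBA1B (0.061), the DNA polymerase subunit POLD1 (0.064) and the kinase PKMYT1 (0.067). For RRM2B they were ZNF225 (0.038), LINC01001 (0.040) and MIGA1 (0.040). With 6 libraries and many genes, close matches are common, and these values are a description.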
